A study of Mus musculus with 32 samples.

Results

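The KEAP1-NRF2 antioxidant genes were followed in the RNA of mouse embryonic fibroblasts. They are 10 of the 39017 genes in the deposited count table and were picked by name: Nfe2l2, which encodes NRF2, its inhibitor Keap1, and the NRF2 targets Hmox1, Nqo1, Gclc, Gclm, Gsr, Txnrd1, Srxn1 and Slc7a11. Each symbol matched 1 gene of the table, and all 10 were among the 18484 genes that passed a filter on low counts and were tested. The 32 samples came from 4 fibroblast lines: ATM knock-out cells with the wild-type line wtATM, and ATMIN knock-out cells with the wild-type line wtATMIN. Cells of every line were kept for 4 h or 24 h in 1 µM aphidicolin (APH) or in DMSO as control, so there were 16 groups, each of 2 samples. Each genotype is 1 line, so a knock-out and any other difference between 2 lines cannot be told apart. How the alleles were made, and whether the samples of a group were separate cultures, is not given in the sources used here, and p-values measure only the spread between these samples, which may be technical. In bulk RNA of this kind, fewer cells that express a gene and less RNA per cell cannot be told apart.

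NRF2 is a transcription factor that KEAP1, the adaptor of a cullin 3 ubiquitin ligase, keeps scarce by marking it for breakdown. When oxidants or electrophiles modify KEAP1, NRF2 accumulates, pairs with a small MAF protein and binds antioxidant response elements, short DNA motifs near its targets. The targets supply and recycle glutathione (Slc7a11, Gclc, Gclm, Gsr), run the thioredoxin and peroxiredoxin cycles (Txnrd1, Srxn1), reduce quinones (Nqo1) and break down haem (Hmox1). NRF2 is controlled largely as a protein, so the RNA level of Nfe2l2 or Keap1 does not measure its activity. Aphidicolin blocks the replicative DNA polymerases, ATM is a kinase of DNA damage signalling that oxidation can also activate, and ATMIN, a partner of ATM, has zinc fingers.

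Promoter windows of 300 bases, from 250 bases before to 50 bases after a start site, were taken from the RefSeq table of GRCm38.p6, which held 9 windows for 7 of the 10 genes and none for Hmox1, Gclc and Gsr. The windows below are shown because the results turn on Srxn1 and Nqo1 with APH and on Slc7a11 with time. They are chr2:152105274-152105573 on the + strand for Srxn1, chr3:50443564-50443863 on the - strand for Slc7a11 and chr8:107403156-107403455 on the - strand for Nqo1, each written 5′ to 3′ along its gene. Capitals mark every match, on both strands, to 4 motifs: the antioxidant response element core TGACNNNGC, the joint element of NRF2 and small MAF TGANTCAGC, the AP-1 element TGANTCA, which lies within the joint element, and the C/EBP-ATF element TGATGCAA.
Srxn1: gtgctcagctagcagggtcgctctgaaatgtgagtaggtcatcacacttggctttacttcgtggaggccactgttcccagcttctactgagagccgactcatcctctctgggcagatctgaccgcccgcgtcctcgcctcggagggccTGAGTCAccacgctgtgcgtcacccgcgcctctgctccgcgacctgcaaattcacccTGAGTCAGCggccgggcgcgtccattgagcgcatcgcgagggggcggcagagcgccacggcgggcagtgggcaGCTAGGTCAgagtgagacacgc
Slc7a11: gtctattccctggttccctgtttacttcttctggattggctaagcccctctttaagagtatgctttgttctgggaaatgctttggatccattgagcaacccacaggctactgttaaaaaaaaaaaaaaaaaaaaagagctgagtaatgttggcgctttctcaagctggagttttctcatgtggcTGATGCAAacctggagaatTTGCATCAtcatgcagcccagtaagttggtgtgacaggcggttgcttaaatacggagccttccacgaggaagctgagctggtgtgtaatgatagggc
Nqo1: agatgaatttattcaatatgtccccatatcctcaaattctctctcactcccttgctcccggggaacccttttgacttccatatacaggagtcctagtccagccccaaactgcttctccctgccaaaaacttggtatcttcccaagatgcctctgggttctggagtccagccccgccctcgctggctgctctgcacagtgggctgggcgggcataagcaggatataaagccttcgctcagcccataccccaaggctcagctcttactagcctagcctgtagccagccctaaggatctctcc

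The Srxn1 window held TGAGTCAGC starting 45 bases before the start site and a further TGAGTCA starting 102 bases before it. It also held the response element core on the other strand, as GCTAGGTCA, 28 bases after the start site. The Slc7a11 window held TGATGCAA starting 66 bases before the start site and the same element on the other strand, as TTGCATCA, 47 bases before it. Nqo1's window held no match. Among the 9 windows the response element core was found in 4, of Nfe2l2, Srxn1, Gclm and Txnrd1, and each other motif in 1. Of all 32851 RefSeq windows 12.4% held TGACNNNGC, 1.19% held TGANTCAGC, 7.81% held TGANTCA and 0.895% held TGATGCAA. A match describes the letters of a window and is not a measured binding site. Bases outside the windows were not searched, and a link of any motif to the changes in RNA was not tested.

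Libraries held 9321329 to 21020662 counted reads, and the lowest count of any member in any library was 36 reads, for Nqo1. Atmin stood at 3.77 to 6.77 CPM (read counts brought to a common library size with TMM factors) in the ATMIN knock-out libraries and at 13.8 to 32.9 CPM in the others. Atm reads remained in the ATM knock-out line, at 17.8 to 45.5 CPM against 43.1 to 65.1 CPM in wtATM, so the ranges overlapped. Reads summed over all of Atm cannot show whether a part of it is missing, and the deleted part is not given here. The ATM knock-out libraries at 4 h of APH stood apart: their correlation on log2 CPM was 0.988, against 0.996 to 0.998 in the other 15 groups. In replicate 1 of that group Gm42418, a locus that overlaps ribosomal RNA sequence, reached 97900.1 CPM, and replicate 2 had the lowest total count of all. Gm42418 ranged from 13783 to 97900.1 CPM in the 16 libraries of 4 h and from 252 to 5754 CPM in those of 24 h. The fibroblast markers Col1a1, Vim and Pdgfra were at 1325, 1068 and 40.8 CPM or more in every library, while Thy1, Lum and Fap were at 0 in some. The 12 fibroblast markers summed to 20620.0 to 24931 CPM in wtATM, 13580.2 to 18727 in ATM knock-out, 7305 to 12439 in wtATMIN and 15658 to 32374 in ATMIN knock-out. The 8 epithelial markers, led by Krt14, summed to 98.6 to 243 CPM in wtATM and to 0.418 to 5.94 CPM in the other lines, with Epcam at 0.304 CPM or less. The 10 blood cell markers summed to 20.3 to 46.7 CPM, with Tyrobp at 0. Their highest medians were those of Cd14 at 10.3, Csf1r at 9.56 and Cd68 at 3.24 CPM. Lyz2 had a median of 0.0593 CPM but reached 17.3 CPM. The part of these signals in the differences below was not tested.

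Per length of transcript the genes spanned a wide range of levels. The median RPKM (CPM per kilobase of the authors' gene length) over the 32 samples was 96.2 for Txnrd1, the cytosolic thioredoxin reductase, 61.2 for Hmox1, 40.3 for Gsr, 32.1 for Nfe2l2, 27.2 for Gclc, 23.6 for Srxn1, 20.3 for Keap1, 19.2 for Gclm, 14.8 for Nqo1 and 6.85 for Slc7a11. Ranges over the samples overlapped between neighbours throughout this order. Nqo1 varied most, with a highest CPM 23.4 times the lowest, and Gclm least, with 2.26 times. Line took most of the spread of log2(CPM + 0.5) over the samples for Gclc (91.5%), Nqo1 (84.0%), Gclm (82.7%), Srxn1 (78.0%), Keap1 (73.9%), Txnrd1 (71.4%) and Gsr (56.6%). Time took the largest share for Slc7a11 (80.3%), Hmox1 (51.4%) and Nfe2l2 (43.1%). Treatment as a main effect took at most 6.01%, for Nqo1.

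**Figure D1:**
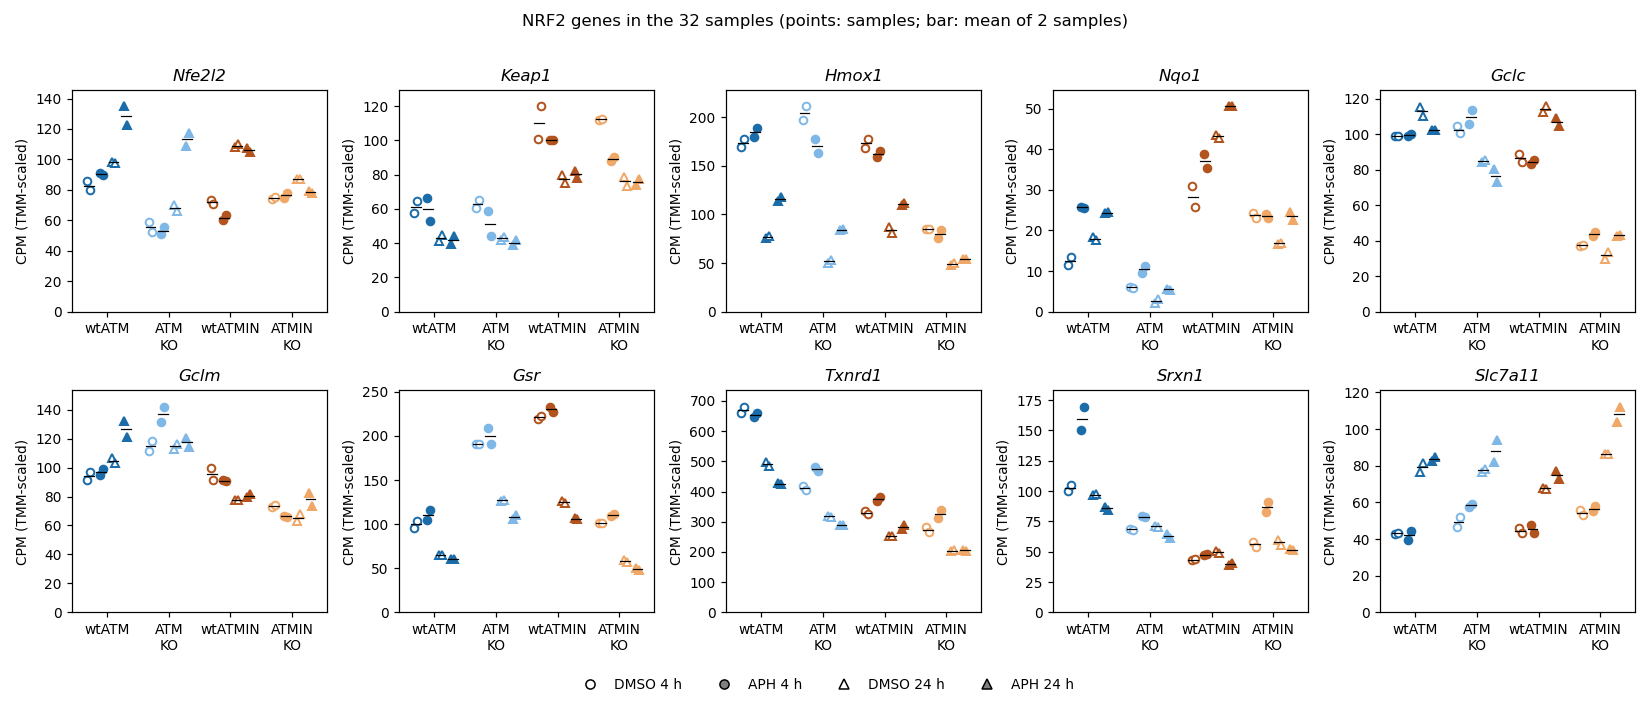
Level of each gene as CPM by line, with each point 1 sample (open for DMSO, filled for APH; circles for 4 h, triangles for 24 h) and each bar the mean of 2. Nqo1 runs from 2.16 to 50.6 CPM and is lowest in the ATM knock-out line.

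APH at 4 h raised Nqo1, Srxn1 and Txnrd1 in 3 of the 4 lines each and left most other members without a call. Every Txnrd1 call, that of Srxn1 in the ATM knock-out line and that of Nqo1 in wtATMIN were lost in some alternatives, given below. In wtATM 2 of the 10 rose and none fell, where 5.58% of all tested genes were called (adjusted p under 0.05 in edgeR's quasi-likelihood test). In the line without ATM it was 5 up and 2 down, with 29.4% of all genes called. In wtATMIN 2 rose and 1 fell, beside 15%, and in the ATMIN knock-out line 3 rose and 1 fell, beside 20.4%. The median log2 change of the 10 genes was 0.064, 0.15, -0.0041 and 0.044 in the lines wtATM, ATM knock-out, wtATMIN and finally ATMIN knock-out, against medians of all genes of -0.014, 0, -0.0077 and -0.016. In the ATM knock-out line 4 were called without DMSO replicate 1, 3 without DMSO replicate 2 and 2, Nqo1 and Txnrd1, without APH replicate 2, the shallowest library. In wtATMIN none was called without DMSO replicate 2 or without APH replicate 1, and 1 without APH replicate 2. In the ATMIN knock-out line 2 were called without DMSO replicate 1 and 1 without DMSO replicate 2 or APH replicate 2.

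APH at 24 h raised Nqo1 in all 4 lines, Hmox1 in 3, and Nfe2l2 in wtATM and the ATM knock-out line, and Gsr was lower in 3 lines. Of the 10 genes 4 rose and 2 fell in wtATM, beside 28.7% of all genes called, and in ATM knock-out 3 went up and 1 down, beside 27.9%. In wtATMIN 3 rose and 2 fell, beside 28.8%, and in the ATMIN knock-out line 4 rose and 1 fell, beside 30.2%. The median log2 change of the members was 0.019, -0.026, 0.051 and 0.071 in the 4 lines, and that of all genes 0.0031, 0.010, 0 and 0. In wtATMIN 3 members were called without any 1 of its libraries, and in the ATMIN knock-out line 3 without DMSO replicate 1. The list itself was not tested, and the counts describe these 10 genes only.

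**Figure D2:**
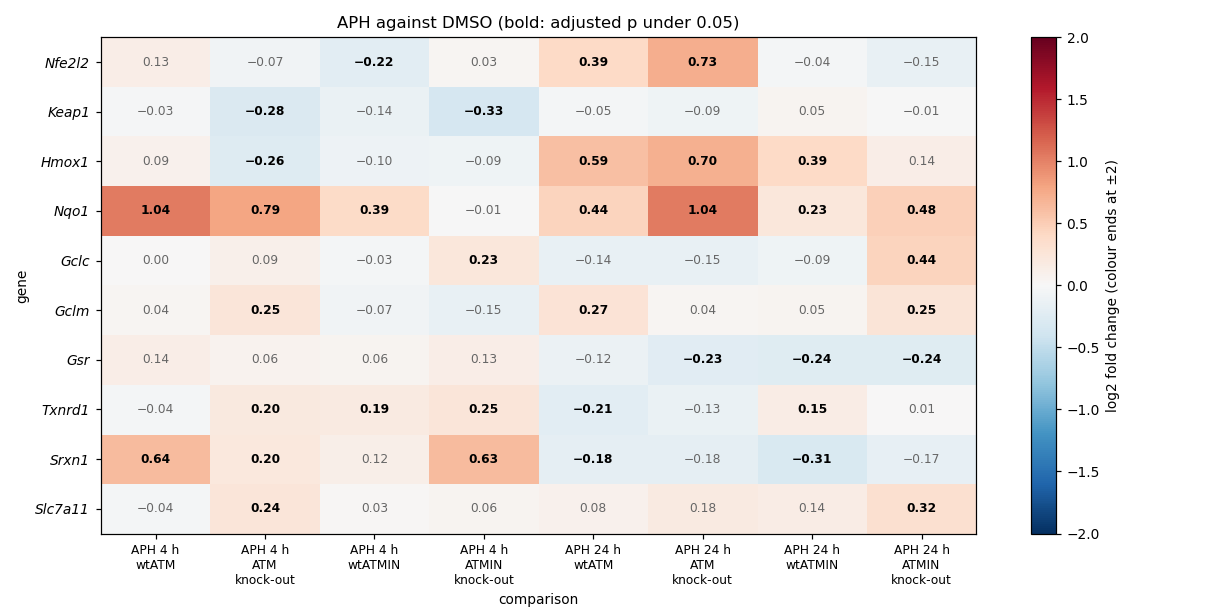
Log2 fold change with APH for the 10 genes (rows) in each line at 4 h and 24 h (columns), from edgeR's quasi-likelihood fit with 2 samples a group; red is higher, blue lower, and bold marks an adjusted p under 0.05. Nqo1 is 1.04 in wtATM at 4 h and 1.04 in the ATM knock-out line at 24 h.

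Nqo1, the quinone reductase (chromosome 8, 107388225 to 107403206, - strand, in GENCODE M21 on GRCm38, as for the genes below), had the 2 largest single changes with APH among the 10 genes, in wtATM at 4 h and in the ATM knock-out line at 24 h. Other members changed more in some comparisons, such as Hmox1 in wtATM and wtATMIN at 24 h and Srxn1 in the ATMIN knock-out line at 4 h. Nqo1 also changed most in the ATM knock-out line and wtATMIN at 4 h and in the ATMIN knock-out line at 24 h. In wtATM its CPM was 11.5 and 13.4 in DMSO and 25.7 and 25.6 with APH at 4 h, and 18.3 and 17.7 against 24.3 and 24.5 at 24 h. In the ATM knock-out line it was 6.03 and 5.92 in DMSO and 9.60 and 11.2 with APH at 4 h, and 2.16 and 3.22 against 5.58 and 5.41 at 24 h. Every APH sample of these lines lay above both DMSO samples of its time. The log2 change at 4 h was 1.04 (SE 0.11, adjusted p = 1.42e-08) in wtATM and 0.79 (SE 0.15, adjusted p = 0.000118) in the ATM knock-out line. At 24 h it was 0.44 (SE 0.10, adjusted p = 0.000930) and 1.04 (SE 0.18, adjusted p = 2.67e-05). The knock-out line's response did not pass the test of a difference from that of wtATM, at -0.25 (SE 0.18, adjusted p = 0.401) at 4 h and 0.60 (SE 0.21, adjusted p = 0.105) at 24 h. The 24 h difference passed without ATM knock-out DMSO 24 h replicate 2 (0.91, adjusted p = 0.0400).

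In wtATMIN the CPM of Nqo1 was 30.8 and 25.9 in DMSO and 38.8 and 35.4 with APH at 4 h, and 43.5 and 42.9 against 50.6 and 50.5 at 24 h. The ATMIN knock-out line had 24.3 and 23.1 in DMSO and 24.1 and 23.1 with APH at 4 h, and 16.8 and 16.9 against 24.5 and 22.5 at 24 h. The ATMIN knock-out samples of 4 h overlapped, and the other pairs of groups did not. The log2 change in wtATMIN was 0.39 (SE 0.093, adjusted p = 0.00300) at 4 h, a call lost without wtATMIN DMSO 4 h replicate 2 (adjusted p = 0.154) or wtATMIN APH 4 h replicate 1 (0.0849). At 24 h it was 0.23 (SE 0.087, adjusted p = 0.0471), a call lost with no filter on low counts (adjusted p = 0.218), in DESeq2 (0.0793) and without any 1 of its 4 libraries (0.172 to 0.210). In the ATMIN knock-out line it was -0.0058 (SE 0.099, adjusted p = 0.999) at 4 h and 0.48 (SE 0.10, adjusted p = 0.000367) at 24 h. The test of the ATMIN knock-out response against that of wtATMIN gave -0.40 (SE 0.14, adjusted p = 0.238) at 4 h and 0.26 (SE 0.13, adjusted p = 0.436) at 24 h.

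Between lines Nqo1 spanned a wider range. The log2 difference of the ATM knock-out line from wtATM was -1.06 (SE 0.13) in DMSO and -1.31 (SE 0.12) with APH at 4 h, and -2.75 (SE 0.14) in DMSO and -2.15 (SE 0.12) with APH at 24 h. The DMSO difference at 24 h, 6.71-fold lower in the knock-out, was the largest between a knock-out line and its wild type among these genes (adjusted p = 1.61e-18), and the authors' deposited table gave it a shrunken log2 fold change of -2.66. The ATMIN knock-out line differed from wtATMIN by -0.26 (SE 0.096) in DMSO and -0.65 (SE 0.096) with APH at 4 h, and -1.36 (SE 0.097) in DMSO and -1.10 (SE 0.092) with APH at 24 h. The first of these (adjusted p = 0.0281) was lost with no filter on low counts (adjusted p = 0.0818), in a fit to its own groups alone (0.0681), in DESeq2 (0.0513) and without wtATMIN DMSO 4 h replicate 1 (0.403), ATMIN knock-out DMSO 4 h replicate 1 (0.0553) or ATMIN knock-out DMSO 4 h replicate 2 (0.168). Between the wild-type lines in DMSO, wtATMIN was above wtATM by 1.18 (SE 0.11) at 4 h and 1.27 (SE 0.095) at 24 h. From 4 h to 24 h in DMSO Nqo1 rose in wtATM by 0.53 (SE 0.11) and in wtATMIN by 0.61 (SE 0.092), and it was lower at 24 h in the ATM knock-out line, at -1.16 (SE 0.18), and in the ATMIN knock-out line, at -0.49 (SE 0.10).

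Srxn1, sulfiredoxin, which repairs overoxidised peroxiredoxins (chromosome 2, 152105516 to 152111376, + strand), was above DMSO with APH at 4 h and below it at 24 h. In wtATM its CPM was 100.3 and 105 in DMSO and 149.9 and 169 with APH at 4 h, and 96.7 and 97.2 against 86.6 and 84.8 at 24 h. In the ATMIN knock-out line it was 58.2 and 53.8 against 82.5 and 91.0 at 4 h, and 59.6 and 56.0 against 51.9 and 51.2 at 24 h. The groups did not overlap at either time, here or in the other lines. The log2 change at 4 h was 0.64 (SE 0.068, adjusted p = 1.44e-08) in wtATM and 0.63 (SE 0.070, adjusted p = 1.40e-08) in the ATMIN knock-out line, 1.55-fold in both. In the ATM knock-out line the CPM at 4 h was 68.7 and 68.2 in DMSO and 79.1 and 78.5 with APH, a log2 change of 0.20 (SE 0.072, adjusted p = 0.0297). That call was lost with library size only (adjusted p = 0.167), with no filter on low counts (0.236), in a fit to its own groups alone (0.296) and without any 1 of its 4 libraries (0.0993 to 0.150). In wtATMIN the CPM at 4 h was 43.2 and 43.7 against 47.0 and 47.8, a log2 change of 0.12 (SE 0.074, adjusted p = 0.292).

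The 4 h response of Srxn1 was smaller in the ATM knock-out line than in wtATM by the test of the difference, at -0.43 (SE 0.098, adjusted p = 0.00515), where 11.4% of all genes were called. It was larger in the ATMIN knock-out line than in wtATMIN, at 0.51 (SE 0.10, adjusted p = 0.00625), where 0.671% of all genes were called. The first call was lost in a fit to its own groups alone (adjusted p = 0.146) and without wtATM APH 4 h replicate 2 (0.0509). The second was lost without wtATMIN APH 4 h replicate 1 (adjusted p = 0.0536), ATMIN knock-out DMSO 4 h replicate 2 (0.0887) or ATMIN knock-out APH 4 h replicate 2 (0.0914). At 24 h the log2 change with APH was -0.18 (SE 0.068, adjusted p = 0.0465) in wtATM and -0.31 (SE 0.073, adjusted p = 0.00138) in wtATMIN, and it did not pass in the ATM and ATMIN knock-out lines, at -0.18 (SE 0.071) and -0.17 (SE 0.072). Both of these passed in a fit to their own groups alone, at -0.18 (adjusted p = 0.0234) and -0.16 (adjusted p = 0.0385). The wtATM call at 24 h was lost with RLE size factors (adjusted p = 0.103), with library size only (0.233), with no filter on low counts (0.165), in a fit to its own groups alone (0.0724), in DESeq2 (0.109) and without any 1 of its 4 libraries (0.109 to 0.172).

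Srxn1 also differed between lines, with opposite signs in the pairs. The ATM knock-out line was below wtATM in all 4 conditions, with log2 differences from -1.02 to -0.45, and the ATMIN knock-out line was above wtATMIN in all 4, from 0.22 to 0.87. The smallest, in DMSO at 24 h in the ATMIN pair, was lost with library size only (adjusted p = 0.0834) and without wtATMIN DMSO 24 h replicate 2 (0.0665) or ATMIN knock-out DMSO 24 h replicate 1 (0.113). The line wtATMIN differed from wtATM by -1.24 (SE 0.072) in DMSO at 4 h and -0.97 (SE 0.070) at 24 h. Over the 8 samples of a line the median CPM was 98.7 in wtATM, 69.5 in ATM knock-out, 57.1 in ATMIN knock-out and 45.3 in wtATMIN.

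Txnrd1, which keeps thioredoxin reduced (chromosome 10, 82833951 to 82897712, + strand), changed little with APH. Its CPM at 4 h in DMSO and APH was 660.4 and 680.1 against 648 and 659.6 in wtATM, and 419.8 and 406 against 482 and 468 in the ATM knock-out line. It was 335 and 326 against 369.8 and 382 in wtATMIN, and 281 and 267 against 311 and 339 in the ATMIN knock-out line. In wtATM both APH samples lay below both DMSO samples, by less than the spread within the groups, and in the other 3 lines both lay above both DMSO samples. The log2 change was -0.036 (SE 0.055) in wtATM, 0.20 (SE 0.056, adjusted p = 0.00579) in ATM knock-out, 0.19 (SE 0.056, adjusted p = 0.0182) in wtATMIN and 0.25 (SE 0.056, adjusted p = 0.00124) in ATMIN knock-out. The ATM knock-out call was lost with library size only (adjusted p = 0.0695), with no filter on low counts (0.0990), in a fit to its own groups alone (0.286) and without ATM knock-out DMSO 4 h replicate 2 (0.0944). The wtATMIN call was lost with no filter on low counts (adjusted p = 0.0782), in a fit to its own groups alone (0.0682) and without wtATMIN DMSO 4 h replicate 2 (0.153), wtATMIN APH 4 h replicate 1 (0.0634) or wtATMIN APH 4 h replicate 2 (0.174). The ATMIN knock-out call was lost without ATMIN knock-out DMSO 4 h replicate 2 (adjusted p = 0.0551) or ATMIN knock-out APH 4 h replicate 2 (0.0782).

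At 24 h Txnrd1 was lower with APH in wtATM, at -0.21 (SE 0.055, adjusted p = 0.00438), and higher in wtATMIN, at 0.15 (SE 0.056, adjusted p = 0.0373). In the ATM knock-out line it went from a mean of 318 to 290 CPM with APH and did not pass. It passed there in DESeq2 (-0.14, adjusted p = 0.0130) and in a fit to its own groups alone (-0.14, adjusted p = 0.0205). The ATMIN knock-out line had means of 204 and 205 CPM and did not pass. The wtATM call was lost with library size only (adjusted p = 0.0628) and without wtATM DMSO 24 h replicate 1 (0.0597), and the wtATMIN call with no filter on low counts (adjusted p = 0.327) and without any 1 of its 4 libraries (0.102 to 0.331). Both knock-out lines held less Txnrd1 than their wild types in all 4 conditions, from -0.70 to -0.46 for ATM and from -0.46 to -0.21 for ATMIN. The smallest, with APH at 4 h in the ATMIN pair, was lost without ATMIN knock-out APH 4 h replicate 1 (adjusted p = 0.105). The line wtATMIN differed from wtATM by -1.02 (SE 0.056) in DMSO at 4 h and -0.95 (SE 0.056) at 24 h.

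Hmox1, haem oxygenase 1 (chromosome 8, 75093621 to 75100589, + strand), rose with APH at 24 h in 3 lines and at 4 h in none. At 24 h its CPM in DMSO and APH was 75.9 and 77.8 against 114 and 118 in wtATM, and 50.6 and 52.9 against 83.9 and 84.8 in the ATM knock-out line. In wtATMIN it was 87.5 and 80.8 against 109.5 and 112, and in the ATMIN knock-out line 48.5 and 49.9 against 54.1 and 54.0. The groups did not overlap in any line, and the step was smallest in the ATMIN knock-out line. The log2 changes were 0.59 (SE 0.066, adjusted p = 8.91e-09), 0.70 (SE 0.069, adjusted p = 6.17e-10), 0.39 (SE 0.065, adjusted p = 1.42e-05) and 0.14 (SE 0.070, adjusted p = 0.149) in this order. The last passed with library size only (0.22, adjusted p = 0.0141). The ATMIN knock-out response did not pass the test against that of wtATMIN, at -0.26 (SE 0.096, adjusted p = 0.179), where 2.43% of all genes were called. At 4 h the ATM knock-out line had 197 and 211 in DMSO and 178 and 164 with APH, a log2 change of -0.26 (SE 0.064, adjusted p = 0.00243). That call was lost in a fit to its own groups alone (adjusted p = 0.298) and without ATM knock-out DMSO 4 h replicate 2 (0.0659) or ATM knock-out APH 4 h replicate 2 (0.0538). The other 3 lines changed by -0.096 to 0.087 at 4 h and did not pass.

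Hmox1 was also lower at 24 h than at 4 h in DMSO in all 4 lines. The log2 difference was -1.17 (SE 0.066) in wtATM, -1.98 (SE 0.068) in the ATM knock-out line, -1.04 (SE 0.065) in wtATMIN and -0.79 (SE 0.068) in the ATMIN knock-out line. The APH samples of 24 h lay below the DMSO samples of 4 h in every line. Against wtATMIN the ATMIN knock-out line held less Hmox1 in all 4 conditions, from -1.03 to -0.78. The ATM knock-out line was above wtATM in DMSO at 4 h, at 0.23 (SE 0.063, adjusted p = 0.00187), and below it at 24 h, at -0.57 (SE 0.069) in DMSO and -0.46 (SE 0.066) with APH. With APH at 4 h its mean was 171 CPM against 184 CPM in wtATM, which did not pass (adjusted p = 0.145). That difference passed with library size only (-0.19, adjusted p = 0.0149).

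Gclc encodes the catalytic subunit of glutamate-cysteine ligase, which sets the pace of glutathione synthesis (chromosome 9, 77754535 to 77794485, + strand). Its CPM was 83.4 to 116 in the 8 wtATMIN samples and 29.7 to 44.9 in the 8 ATMIN knock-out samples, with no overlap. The log2 difference was -1.21 (SE 0.070) in DMSO and -0.95 (SE 0.070) with APH at 4 h, and -1.85 (SE 0.071) in DMSO and -1.32 (SE 0.069) with APH at 24 h. Within the ATMIN knock-out line Gclc stood at 29.7 and 33.7 in DMSO and 42.6 and 43.3 with APH at 24 h, a log2 change of 0.44 (SE 0.074, adjusted p = 1.91e-05). In wtATMIN it was 112 and 116 against 109 and 105, a log2 change of -0.092 (SE 0.065, adjusted p = 0.318). The test of the difference between these responses gave 0.53 (SE 0.099, adjusted p = 0.00112), and the call held in every alternative fit, with a highest adjusted p of 0.0348.

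Elsewhere Gclc moved less. At 4 h APH raised it in the ATMIN knock-out line by 0.23 (SE 0.073, adjusted p = 0.0226), a call lost with no filter on low counts (adjusted p = 0.108) and without ATMIN knock-out DMSO 4 h replicate 1 (0.116), ATMIN knock-out DMSO 4 h replicate 2 (0.108) or ATMIN knock-out APH 4 h replicate 2 (0.189). In wtATM, the ATM knock-out line and wtATMIN its log2 change with APH lay between -0.15 and 0.094 over both times. Of these 6 changes 1 passed in 1 alternative, that of the ATM knock-out line at 24 h in a fit to its own groups alone (-0.15, adjusted p = 0.0465). The ATM knock-out line did not pass a difference from wtATM at 4 h, at 0.050 in DMSO and 0.14 with APH. The latter passed without ATM knock-out APH 4 h replicate 1 (0.18, adjusted p = 0.0471). The line was lower at 24 h, at -0.41 (SE 0.066) in DMSO and -0.42 (SE 0.067) with APH.

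Gclm, the modifier subunit of the same ligase (chromosome 3, 122245557 to 122270732, + strand), ran from 62.8 to 142 CPM over all samples, the smallest ratio of highest to lowest among the 10 genes. APH raised it at 4 h in the ATM knock-out line, from 112 and 118 to 131 and 142 CPM, a log2 change of 0.25 (SE 0.069, adjusted p = 0.00590). At 24 h it rose in wtATM by 0.27 (SE 0.068, adjusted p = 0.00198) and in the ATMIN knock-out line by 0.25 (SE 0.071, adjusted p = 0.00535). None of these calls held throughout. The first was lost with library size only (adjusted p = 0.0600), with no filter on low counts (0.0557), in a fit to its own groups alone (0.209) and without ATM knock-out DMSO 4 h replicate 1 (0.0810) or ATM knock-out APH 4 h replicate 2 (0.109). The second was lost without wtATM APH 24 h replicate 1 (adjusted p = 0.0650), and the third without ATMIN knock-out DMSO 24 h replicate 1 (adjusted p = 0.116) or ATMIN knock-out APH 24 h replicate 1 (0.163). At 4 h the ATMIN knock-out line held less Gclm than wtATMIN, at -0.38 (SE 0.069) in DMSO and -0.45 (SE 0.071) with APH, and the ATM knock-out line held more than wtATM, at 0.29 (SE 0.069) and 0.49 (SE 0.070). In DMSO at 24 h the ATMIN pair gave -0.25 (SE 0.070), a call lost without ATMIN knock-out DMSO 24 h replicate 1 (adjusted p = 0.0813). Gclm shares 296 exon bases with Gm17494 on the other strand and 244 with the pseudogene Gm6061 on its own, and reads of these cannot be told apart here.

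Gsr, glutathione reductase (chromosome 8, 33652523 to 33698163, + strand), divided the lines across the pairs. In DMSO at 4 h its CPM was 95.2 and 104 in wtATM, and 191 and 191 in the line without ATM. It was 219 and 223 in wtATMIN, and 101 and 102 in the line without ATMIN. The ATM knock-out line and wtATMIN were thus high and the other two lines low. The ATM knock-out line was above wtATM by 0.85 to 0.96 on the log2 scale over the 4 conditions, and the ATMIN knock-out line differed from wtATMIN by -1.13 to -1.06. With APH at 24 h Gsr was lower in the ATM knock-out line at -0.23 (SE 0.063, adjusted p = 0.00616), in wtATMIN at -0.24 (SE 0.062, adjusted p = 0.00346) and in the ATMIN knock-out line at -0.24 (SE 0.067, adjusted p = 0.00515), while wtATM gave -0.12 (SE 0.066, adjusted p = 0.190). The ATM knock-out call was lost without ATM knock-out DMSO 24 h replicate 2 (adjusted p = 0.0518) or ATM knock-out APH 24 h replicate 1 (0.0894). The wtATMIN call was lost with library size only (adjusted p = 0.0665), and the ATMIN knock-out call with library size only (adjusted p = 0.0898) and without ATMIN knock-out DMSO 24 h replicate 1 (0.0702) or ATMIN knock-out APH 24 h replicate 2 (0.0682). In DMSO Gsr was lower at 24 h than at 4 h in all 4 lines, from -0.82 to -0.59.

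Slc7a11, the cystine importer that feeds glutathione synthesis (chromosome 3, 49892526 to 50443614, - strand), followed time more than line or treatment. In DMSO its CPM at 4 h and 24 h was 43.0 and 43.4 against 76.8 and 81.5 in wtATM, and 46.5 and 52.0 against 76.8 and 78.3 in ATM knock-out. It was 46.1 and 43.3 against 68.1 and 67.2 in wtATMIN, and 55.8 and 52.9 against 86.5 and 86.5 in ATMIN knock-out. All 8 DMSO samples of 24 h lay above all 8 of 4 h. The log2 difference was 0.87 (SE 0.080), 0.66 (SE 0.078), 0.60 (SE 0.078) and 0.67 (SE 0.077) in this order. APH raised it in the ATMIN knock-out line at 24 h, from those values to 104 and 112 CPM, by 0.32 (SE 0.074, adjusted p = 0.00107). In the other lines at 24 h Slc7a11 did not pass in the fit to all samples. It passed in ATM knock-out in its own groups alone (0.18, adjusted p = 0.0257) and in wtATMIN with library size only (0.22, adjusted p = 0.0365). It also rose in the ATM knock-out line at 4 h, by 0.24 (SE 0.082, adjusted p = 0.0230), a call lost with library size only (adjusted p = 0.119), with no filter on low counts (0.128), in a fit to its own groups alone (0.248) and without ATM knock-out DMSO 4 h replicate 1 (0.272) or ATM knock-out APH 4 h replicate 2 (0.139). The ATMIN knock-out line was above wtATMIN in all 4 conditions, from 0.28 to 0.53. At 4 h the DMSO call was lost without wtATMIN DMSO 4 h replicate 2 (adjusted p = 0.0537) or ATMIN knock-out DMSO 4 h replicate 1 (0.0503), and the APH call without wtATMIN APH 4 h replicate 2 (adjusted p = 0.0519). In the ATM pair the knock-out was above wtATM at 4 h, at 0.48 (SE 0.083) with APH and 0.19 (SE 0.082, adjusted p = 0.0489) in DMSO. The DMSO call was lost with RLE size factors (adjusted p = 0.0520), with no filter on low counts (0.0857), in a fit to its own groups alone (0.0927), in DESeq2 (0.0734) and without wtATM DMSO 4 h replicate 1 (0.141), wtATM DMSO 4 h replicate 2 (0.119) or ATM knock-out DMSO 4 h replicate 2 (0.378).

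Nfe2l2 (chromosome 2, 75675513 to 75704641, - strand) rose with APH at 24 h in the wtATM and ATM knock-out lines. Its CPM in DMSO and APH was 98.2 and 98.0 against 135 and 123 in wtATM, and 70.2 and 66.0 against 109 and 118 in the ATM knock-out line. In wtATMIN it was 108 and 110.3 against 108 and 105, and in the ATMIN knock-out line 87.4 and 87.1 against 79.3 and 78.1. The APH samples were above DMSO without overlap in the ATM pair and below it in the ATMIN knock-out line, while in wtATMIN the nearest samples were less than 1 CPM apart. The log2 changes were 0.39 (SE 0.067, adjusted p = 2.05e-05), 0.73 (SE 0.069, adjusted p = 2.99e-10), -0.037 (SE 0.067, adjusted p = 0.735) and -0.15 (SE 0.069, adjusted p = 0.103). The last passed in a fit to its own groups alone (-0.14, adjusted p = 0.0307). The ATM knock-out response exceeded that of wtATM by 0.34 (SE 0.096, adjusted p = 0.0369), where 3.92% of all genes were called. That call was lost with RLE size factors (adjusted p = 0.0722), with library size only (0.113), with no filter on low counts (0.166) and without wtATM DMSO 24 h replicate 1 (0.112), wtATM DMSO 24 h replicate 2 (0.104), wtATM APH 24 h replicate 2 (0.162), ATM knock-out DMSO 24 h replicate 1 (0.0579), ATM knock-out DMSO 24 h replicate 2 (0.179) or ATM knock-out APH 24 h replicate 2 (0.210).

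At 4 h Nfe2l2 had 73.0 and 70.8 in DMSO and 60.4 and 63.2 with APH in wtATMIN, a log2 change of -0.22 (SE 0.070, adjusted p = 0.0308). That call was lost with library size only (adjusted p = 0.0568), with no filter on low counts (0.0970), in a fit to its own groups alone (0.0995) and without any 1 of its 4 libraries (0.0661 to 0.220). The other lines did not pass at 4 h. Nfe2l2 was lower in the ATM knock-out line than in wtATM, from -0.77 to -0.19 over the 4 conditions, and the smallest of these, with APH at 24 h, was lost without wtATM APH 24 h replicate 1 (adjusted p = 0.232) or ATM knock-out APH 24 h replicate 1 (0.198). Against wtATMIN the ATMIN knock-out line gave 0.054 (SE 0.069) in DMSO and 0.30 (SE 0.070) with APH at 4 h, and -0.32 (SE 0.068) in DMSO and -0.43 (SE 0.068) with APH at 24 h, and the first of these did not pass (adjusted p = 0.564).

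Keap1 (chromosome 9, 21229730 to 21239361, - strand) separated the pairs of lines rather than knock-out from wild type. In DMSO at 4 h its CPM was 57.8 and 64.6 in wtATM and 60.5 and 65.3 in ATM knock-out, against 101 and 119.9 in wtATMIN and 112 and 112 in ATMIN knock-out. The 8 log2 differences of a knock-out from its wild type lay between -0.21 and 0.037, and none passed in the fit to all samples. The lowest, in the ATM pair with APH at 4 h, passed with library size only (-0.30, adjusted p = 0.00921), with no filter on low counts (-0.24, adjusted p = 0.0253), without wtATM APH 4 h replicate 2 (-0.36, adjusted p = 0.00992) and without ATM knock-out APH 4 h replicate 1 (-0.46, adjusted p = 0.000913). The line wtATMIN was above wtATM by 0.85 (SE 0.098) in DMSO at 4 h and by 0.85 (SE 0.099) at 24 h. In DMSO Keap1 was lower at 24 h than at 4 h in all 4 lines, from -0.56 to -0.51. With APH at 4 h it was lower in the ATM knock-out line, at -0.28 (SE 0.10, adjusted p = 0.0389), and in the ATMIN knock-out line, at -0.33 (SE 0.095, adjusted p = 0.0100). The first call was lost in a fit to its own groups alone (adjusted p = 0.299) and without ATM knock-out DMSO 4 h replicate 2 (0.250) or ATM knock-out APH 4 h replicate 2 (0.588). The second was lost without any 1 of its 4 libraries (adjusted p = 0.0561 to 0.0855). Keap1 shares 510 exon bases with the antisense gene Gm16754, and the strand setting of the counting is not given in the sources used here, so their reads cannot be told apart.

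Between knock-out and wild-type lines most of the 10 genes were called, as were many of all genes. Nqo1 and Txnrd1 were lower in all 8 comparisons. Gsr and Srxn1 were called in all 8 with opposite signs in the pairs: Gsr was high and Srxn1 low in the ATM knock-out line, and the reverse held in the ATMIN knock-out line. In the ATM pair 4 higher and 4 lower members were called in DMSO at 4 h beside 55.2% of all genes, and 3 higher and 4 lower with APH at 4 h beside 58.9%. At 24 h it was 1 higher and 6 lower in DMSO beside 59.3%, and 1 higher and 6 lower with APH beside 61.3%. In the ATMIN pair it was 2 higher and 6 lower in DMSO at 4 h beside 44.9%, and 3 higher and 6 lower with APH at 4 h beside 42.1%. At 24 h it was 2 higher and 7 lower in DMSO beside 49.6%, and 2 higher and 6 lower with APH beside 50.6%. The median log2 difference of the members was 0.044, -0.16, -0.43 and -0.30 in the ATM pair and -0.26, -0.33, -0.32 and -0.45 in the ATMIN pair, in the same order, with medians of all genes between -0.011 and 0.030. The 4 conditions of a pair use the same lines and are not independent of each other.

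**Figure D3:**
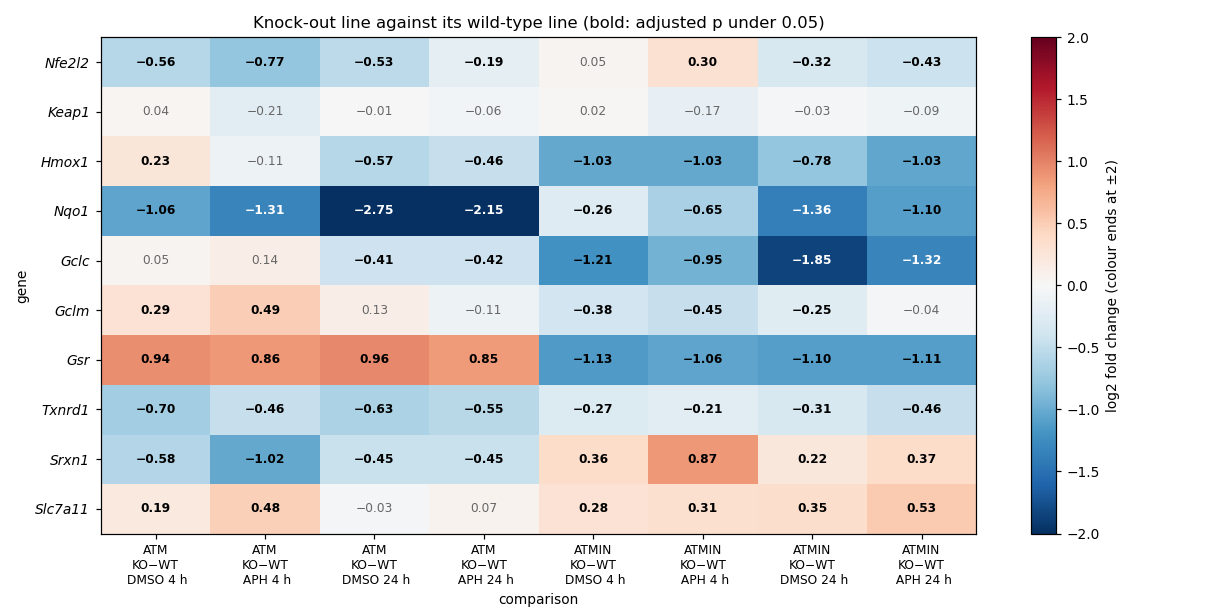
Log2 difference of each knock-out line from its wild-type line for the 10 genes (rows) in the 4 conditions of each pair (columns), from edgeR's quasi-likelihood fit; red is higher, blue lower, and bold marks an adjusted p under 0.05. Gsr is 0.85 to 0.96 in the ATM pair and -1.13 to -1.06 in the ATMIN pair.

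Few members passed the test of a knock-out response to APH against that of its wild type. In the ATM pair at 4 h 1 of 10 had a higher response in the knock-out and 2 a lower one, beside 11.4% of all genes called. At 24 h Nfe2l2 passed in the fit to all samples, beside 3.92%, with the losses given above, and Nqo1 passed without 1 library, as given above. Keap1 passed at 4 h without ATM knock-out APH 4 h replicate 1 (-0.50, adjusted p = 0.00838). Beside Srxn1, the 4 h calls were Hmox1 at -0.34 (SE 0.090, adjusted p = 0.0125) and Txnrd1 at 0.24 (SE 0.079, adjusted p = 0.0437). Hmox1 lost its call in a fit to its own groups alone (adjusted p = 0.188) and without wtATM DMSO 4 h replicate 1 (0.0740), wtATM APH 4 h replicate 2 (0.0701), ATM knock-out DMSO 4 h replicate 2 (0.0879) or ATM knock-out APH 4 h replicate 2 (0.0719). Txnrd1 lost its call with library size only (adjusted p = 0.269), with no filter on low counts (0.299), in a fit to its own groups alone (0.314) and without any 1 of its 8 libraries (0.0546 to 0.190). In the ATMIN pair 1 member passed at each time, Srxn1 at 4 h beside 0.671% and Gclc at 24 h beside 2.43%, both larger in the knock-out.

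The responses at 24 h and 4 h differed for several members within a line. Srxn1 was lower at 24 h in all 4 lines, and Hmox1 was higher in wtATM, ATM knock-out and wtATMIN. In wtATM 1 member had a higher and 2 a lower response at 24 h than at 4 h, beside 15.1% of all genes called. It was 2 and 3 in the ATM knock-out line beside 22%, 1 and 2 in wtATMIN beside 18.6%, and 2 and 3 in the ATMIN knock-out line beside 21.1%. The difference for Srxn1 was -0.81 (SE 0.096), -0.38 (SE 0.10), -0.43 (SE 0.10) and -0.80 (SE 0.10) in the 4 lines, and the ATM knock-out call was lost with library size only (adjusted p = 0.0514). For Hmox1 it was 0.51 (SE 0.091), 0.96 (SE 0.094) and 0.49 (SE 0.091), while the ATMIN knock-out line gave 0.23 (SE 0.097, adjusted p = 0.0941) and passed with library size only (0.31, adjusted p = 0.0197). Nqo1 went in opposite directions, at -0.60 (SE 0.15, adjusted p = 0.00437) in wtATM and 0.49 (SE 0.14, adjusted p = 0.0115) in the ATMIN knock-out line, and the second call was lost without ATMIN knock-out DMSO 4 h replicate 1 (adjusted p = 0.0522) or ATMIN knock-out APH 24 h replicate 1 (0.0758). Nfe2l2 gave 0.80 (SE 0.10, adjusted p = 5.39e-07) in the ATM knock-out line. Gsr had a lower response at 24 h in 3 lines, at -0.29 (SE 0.088) in ATM knock-out, -0.29 (SE 0.087) in wtATMIN and -0.37 (SE 0.092) in ATMIN knock-out. The first was lost with library size only (adjusted p = 0.120), with no filter on low counts (0.0864), in a fit to its own groups alone (0.0945) and without ATM knock-out DMSO 4 h replicate 2 (0.0590), ATM knock-out APH 4 h replicate 1 (0.0956), ATM knock-out DMSO 24 h replicate 2 (0.0730) or ATM knock-out APH 24 h replicate 1 (0.0911). The second was lost with library size only (adjusted p = 0.105) and without wtATMIN APH 4 h replicate 1 (0.0646). In the ATMIN knock-out line Gclm gave 0.40 (SE 0.10), lost without ATMIN knock-out APH 24 h replicate 1 (adjusted p = 0.0551). Txnrd1 there gave -0.24 (SE 0.080), lost with library size only (adjusted p = 0.225), with no filter on low counts (0.119) and without ATMIN knock-out DMSO 4 h replicate 2 (0.147), ATMIN knock-out APH 4 h replicate 2 (0.203), ATMIN knock-out DMSO 24 h replicate 1 (0.0620), ATMIN knock-out DMSO 24 h replicate 2 (0.0912), ATMIN knock-out APH 24 h replicate 1 (0.0523) or ATMIN knock-out APH 24 h replicate 2 (0.0903). The medians over the 10 genes were -0.081, -0.14, 0.041 and 0.22 in the 4 lines, and those of all genes 0.0027, 0.018, -0.0055 and 0.00050. In the ATMIN knock-out line 2 members were called without APH 24 h replicate 1.

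**Figure D4:**
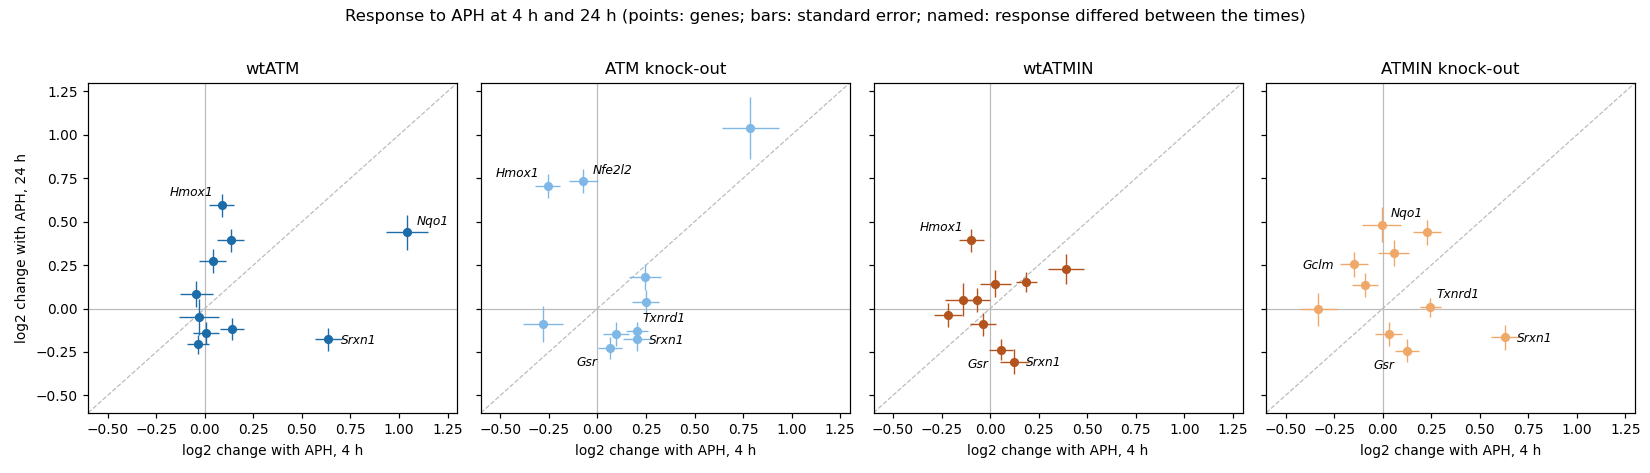
Log2 change with APH at 4 h (x axis) against that at 24 h (y axis) in each line, with standard errors of the fit as bars, a dashed line where both are equal, and names for genes whose responses differed between the times. Srxn1 lies below the dashed line in each of the 4 lines and Hmox1 above it, by 0.23 in the ATMIN knock-out line, where it did not pass.

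In DMSO alone most members differed between 24 h and 4 h. Nfe2l2 and Slc7a11 were higher and Hmox1, Gsr, Txnrd1 and Keap1 lower at 24 h in all 4 lines. Of the 10 genes 4 were higher and 4 lower at 24 h in wtATM, beside 46.4% of all genes called, and in the ATM knock-out line 2 were higher and 6 lower, beside 48.7%. In wtATMIN 5 were higher and 5 lower, beside 55.5%, and in the ATMIN knock-out line 2 higher and 7 lower, beside 47.2%. The Srxn1 call in wtATMIN was lost with RLE size factors (adjusted p = 0.0591) and in DESeq2 (0.0799). It was also lost with no filter on low counts (0.116) and in a fit to its own groups alone (0.150). Gclm lost its call with library size only in wtATMIN (adjusted p = 0.0663) and in ATMIN knock-out (0.658), as did Gclc in ATMIN knock-out (0.289). With no filter on low counts Gclm in ATMIN knock-out lost its call too (adjusted p = 0.140). Calls were also lost without some single libraries for Gclm and Gclc in ATMIN knock-out and Gclc in wtATM. The Srxn1 call in wtATMIN was lost without any 1 of its 4 libraries. In wtATM Gclm passed with library size only (adjusted p = 0.00586) and in its own groups alone (0.0195). The calls of Nfe2l2, at 0.25 (SE 0.069) in wtATM and 0.29 (SE 0.071) in ATM knock-out, were lost without wtATM DMSO 4 h replicate 2 (adjusted p = 0.0650) and without ATM knock-out DMSO 4 h replicate 2 (adjusted p = 0.0524). Between the wild-type lines in DMSO 3 members were higher in wtATMIN and 4 lower at 4 h, beside 57.2% of all genes, and 4 and 4 at 24 h, beside 61.7%. At 4 h Nfe2l2 and Gclc lost their calls with library size only (adjusted p = 0.282 and 0.298) and with no filter (0.0995 and 0.103). At 24 h Nfe2l2 lost its call with no filter (adjusted p = 0.162) and Slc7a11 with library size only (0.253). Each of these calls between the wild-type lines was also lost without some single libraries. That of Nfe2l2 at 4 h was lost in its own groups alone too (adjusted p = 0.0523). Hmox1 passed at 24 h with library size only (adjusted p = 0.00164) and in its own groups alone (0.0467). Libraries of the 4 h and 24 h groups also differ in Gm42418, as given above, and whether they were prepared together is not given in the sources used here, so time and library preparation cannot be told apart.

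Genes that act with the 10 were described from 7 further lists, with the medians of all genes given above (-0.016 to 0.010 over the APH comparisons) beside them. The list counts at 24 h are to be read against the 28.7%, 27.9%, 28.8% and 30.2% of all tested genes called in the 4 lines. Those at 4 h are to be read against 5.58%, 29.4%, 15% and 20.4%. The list of NRF2 partners and regulators held 14 tested genes, among them the small MAF genes, Bach1, Cul3, Nfe2l1 and Sqstm1, whose product p62 can sequester KEAP1. With APH at 24 h 4 rose and 1 fell (median 0.075) in wtATM, 4 rose and 2 fell (median 0.16) in ATM knock-out, 4 rose and 3 fell (median 0.014) in wtATMIN and 3 rose and 3 fell (median -0.054) in ATMIN knock-out. Sqstm1 rose by 0.53 (SE 0.077), 0.79 (SE 0.077) and 0.62 (SE 0.078) in the first 3 lines, in ATM knock-out from 372 to 644 CPM. Maff, a small MAF partner, rose in wtATMIN by 0.98 (SE 0.11), from 10.6 to 20.8 CPM. At 4 h none of the 14 passed in wtATM, and 1, 1 and 2 rose and 3 fell in each of the other lines.

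The list of glutathione supply and use held 27 tested genes, and its calls at 24 h were all upward in the ATM pair of lines: 13 rose and 0 fell (median 0.29) in wtATM, 12 rose and 0 fell (median 0.25) in ATM knock-out, 4 rose and 4 fell (median -0.079) in wtATMIN and 4 rose and 7 fell (median -0.041) in ATMIN knock-out. Chac1, which breaks glutathione down, rose by 1.19 (SE 0.11) in wtATM, 1.43 (SE 0.11) in ATM knock-out and 1.28 (SE 0.13) in wtATMIN. Gstm2, a glutathione transferase with close paralogs among which reads may be split, rose by 0.46 (SE 0.090), 1.02 (SE 0.11), 0.92 (SE 0.12) and 0.83 (SE 0.10) in the 4 lines. Of the 18 genes of detoxification and export 10 rose and 2 fell (median 0.27) in wtATM, 11 rose and 1 fell (median 0.37) in ATM knock-out, 5 rose and 2 fell (median 0.16) in wtATMIN and 2 rose and 5 fell (median -0.011) in ATMIN knock-out. Ptgr1, a reductase of prostaglandins and leukotrienes, rose by 0.69 (SE 0.080), 0.63 (SE 0.081), 0.67 (SE 0.082) and 0.59 (SE 0.084). Ephx1, microsomal epoxide hydrolase, rose by 1.54 (SE 0.078) in ATM knock-out, from 21.2 to 61.9 CPM, and by 0.63 (SE 0.063) in wtATM, from 253 to 393 CPM. Whether these counts differ between the pairs of lines was not tested.

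Among 20 tested genes of thioredoxin and peroxide removal 6 rose and 3 fell (median 0.085) in wtATM, 7 rose and 6 fell (median 0.11) in ATM knock-out, 4 rose and 7 fell (median -0.12) in wtATMIN and 5 rose and 7 fell (median -0.080) in ATMIN knock-out. Txnip, an inhibitor of thioredoxin, rose by 2.87 (SE 0.13), 3.74 (SE 0.13), 1.44 (SE 0.12) and 1.56 (SE 0.13), in ATM knock-out from 42.0 to 563 CPM. Txnrd3, a further thioredoxin reductase, fell in the 4 lines, with -0.75 (SE 0.12), -0.88 (SE 0.11), -0.71 (SE 0.13) and -1.17 (SE 0.14). Of 11 tested genes of NADPH supply 2 rose and 1 fell (median -0.0027) in wtATM, 1 rose and 1 fell (median -0.067) in ATM knock-out, 0 rose and 6 fell (median -0.24) in wtATMIN and 0 rose and 6 fell (median -0.29) in ATMIN knock-out. Idh1, which makes NADPH in the cytosol, rose in wtATM by 0.56 (SE 0.083) and gave -0.50 (SE 0.086) in wtATMIN and -0.47 (SE 0.087) in ATMIN knock-out. Of 14 haem and iron genes 2 rose and 2 fell (median 0.086) in wtATM, 7 rose and 1 fell (median 0.20) in ATM knock-out, 2 rose and 4 fell (median -0.018) in wtATMIN and 3 rose and 6 fell (median -0.070) in ATMIN knock-out. Fth1, the ferritin heavy chain, rose by 0.29 (SE 0.075) in wtATM and 0.45 (SE 0.076) in ATM knock-out and gave -0.31 (SE 0.075) in ATMIN knock-out. With APH at 4 h the glutathione list gave 1 up and 1 down in wtATM and 2 and 5 in ATM knock-out. It gave 0 and 8 in wtATMIN and 1 and 4 in ATMIN knock-out. In the same order detoxification and export gave 1 and 1, 3 and 3, 2 and 6, and 2 and 5. Thioredoxin and peroxide removal gave 1 and 0, 4 and 6, 1 and 3, and 1 and 5. NADPH supply gave 0 and 1, 0 and 7, 0 and 4, and 0 and 3. Haem and iron gave 1 and 0, 3 and 4, 2 and 2, and 2 and 1.

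ATF4, the factor of the integrated stress response, shares Slc7a11 with NRF2 as a target, and the list of ATF4 and its targets held 15 tested genes without it. With APH at 4 h 0 rose and 4 fell (median -0.15) in wtATM, 0 rose and 11 fell (median -0.27) in ATM knock-out, 1 rose and 4 fell (median -0.030) in wtATMIN and 0 rose and 7 fell (median -0.24) in ATMIN knock-out. Of all genes 5.58%, 29.4%, 15% and 20.4% were called there. At 24 h 8 rose and 4 fell (median 0.20) in wtATM, 9 rose and 1 fell (median 0.28) in ATM knock-out, 6 rose and 2 fell (median 0.11) in wtATMIN and 3 rose and 8 fell (median -0.23) in ATMIN knock-out. Trib3, a pseudokinase, rose at 24 h by 1.95 (SE 0.13) in wtATMIN, from 6.75 to 26.3 CPM, and gave -0.44 (SE 0.098) in ATMIN knock-out, from 62.5 to 46.2 CPM. In DMSO at 24 h the ATMIN knock-out line was compared with wtATMIN, and 11 higher and 1 lower (median 0.73) of the 15 were called, led by Trib3 at 3.20 (SE 0.12) and Chac1 at 1.92 (SE 0.12), beside a median of all genes of -0.010 and 49.6% of all genes called. Slc7a11 was 0.35 (SE 0.075) higher in the same comparison, 1.28-fold. In DMSO from 4 h to 24 h the list went mostly down, with 0 higher and 12 lower (median -0.50) in wtATM. It was 1 and 7 (median -0.28) in ATM knock-out and 0 and 14 (median -0.70) in wtATMIN. The ATMIN knock-out line gave 3 and 6 (median -0.13). Of all genes 46.4%, 48.7%, 55.5% and 47.2% were called there. Slc7a11 was higher at 24 h in all 4 lines, by 0.60 to 0.87, and its link to the list was not tested. Chac1, Sesn2 and Slc3a2 stand in more than 1 list.

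The ATMIN pair in DMSO at 24 h gave 8 higher and 13 lower (median -0.48) calls among the 27 glutathione genes. Of all genes 49.6% were called there. The called glutathione genes included Ggt7, a gamma-glutamyltransferase, at -3.82 (SE 0.17) and Gstt1, a glutathione transferase, at -2.92 (SE 0.17). Of the 18 detoxification genes 4 higher and 9 lower (median -0.18) were called, among them the aldehyde dehydrogenase gene Aldh3a1 at -3.43 (SE 0.15), from 35.1 to 3.26 CPM, and the carbonyl reductase gene Cbr3 at -3.97 (SE 0.24). In the ATM pair in DMSO at 24 h 5 higher and 10 lower (median -0.28) of the detoxification genes were called, where 59.3% of all genes were, with Ephx1 at -3.58 (SE 0.076), from 253 to 21.2 CPM, and the carboxylesterase gene Ces2g at -4.91 (SE 0.16). The glutathione list gave 11 higher and 11 lower (median 0) there, with Gstm5 at 2.67 (SE 0.12) and Gstm2 at -1.92 (SE 0.10).

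The 10 genes did not vary together as 1 group. Over the mean log2 CPM of the 16 groups, the median Pearson correlation of the 45 pairs was -0.042, with 22 pairs above 0. The highest was 0.76, between Txnrd1 and Srxn1, and the lowest -0.80, between Hmox1 and Slc7a11. Over the 8 responses to APH the median was 0.036, the highest 0.92 (Gsr and Srxn1) and the lowest -0.80 (Hmox1 and Txnrd1). These points share lines, times and libraries, so the values are descriptions. The genes whose 16 group means were most like those of a member, among 13825 genes with a mean log2 CPM of at least 1, were Aldh3a2 for Nfe2l2 (0.91), Gm16754 for Keap1 (0.99), Gm10814 for Hmox1 (0.89), Atp11a for Nqo1 (0.95) and Msx1 for Gclc (0.96). They were Tmem47 for Gclm (0.94), 2310036O22Rik for Gsr (0.97), Ppp1r12a for Txnrd1 (0.97), Msantd3 for Srxn1 (0.93) and Gm6822 for Slc7a11 (0.96). Gm16754 is the antisense gene that overlaps Keap1.

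The authors' deposited tables hold 10 comparisons with all 10 genes. In these 100 pairs of gene and comparison their shrunken log2 fold changes had the direction found here in 100, with a largest difference of 0.082. The side of the threshold differed in 3: in the authors' deposited tables the adjusted p was 0.134 for Nqo1 in the ATMIN pair in DMSO at 4 h, 0.103 for Nfe2l2 with APH at 4 h in wtATMIN and 0.157 for Slc7a11 in the ATM pair in DMSO at 4 h.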

How the data were processed

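RNA of 32 fibroblast samples, in 16 groups of 2, had been sequenced from libraries of the TruSeq RNA kit version 2, per the labels' protocols. The authors deposited raw read counts per Ensembl gene on mm10, made with Bowtie2 2.4.0 and TopHat2 2.0.13, per the submitters' processing notes. The counting tool, its strand setting and the Ensembl release are not given in the sources used here. The authors also deposited tables of 10 comparisons, with log2 fold changes that the file headers show to be shrunken and adjusted p-values, per the submitters' notes from DESeq2 1.6.3. AT and UT in the column names were read as APH and DMSO. The 120 columns of values per sample and 60 columns of means in those tables were not used.

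Counts were fitted for all 32 samples in edgeR 4.0.16 (R 4.3.3, limma 3.58.1) with a mean per group, TMM scaling, edgeR's own filter on low counts by group and robust quasi-likelihood tests. Each of the 30 comparisons was adjusted by Benjamini-Hochberg over the 18484 genes tested, and a call is an adjusted p under 0.05. SE is the log2 change over the square root of F. CPM refer to the TMM-scaled library, and RPKM divides CPM by the authors' gene length. With total counts of 9321329 to 21020662 reads, every member had at least 36 reads in each library. The script was tested on simulated counts. As alternatives the fit was repeated without the filter on low counts, with library size only or RLE size factors in place of TMM, in DESeq2 1.42.0, with the replicate number as a block, on the compared groups alone, and without each library in turn.

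The 10 members and the 7 further lists were chosen with earlier results of these data known. The members were named in every comparison, and from each list at most the 4 genes with the smallest p in the comparison described. Of the 3 genes most like each member the first is named. Positions are from GENCODE M21 and promoters from RefSeq, both on GRCm38.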

Additional observations from a re-analysis of the deposited data

Results flagged for a closer look

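The response to APH differed between a knock-out line and its wild type for 6 pairs of gene and time, by the interaction test of edgeR's quasi-likelihood fit. Values are the knock-out's log2 change minus that of the wild type. In the ATM pair at 4 h they were -0.34 (SE 0.090, adjusted p = 0.0125) for Hmox1, 0.24 (SE 0.079, adjusted p = 0.0437) for Txnrd1 and -0.43 (SE 0.098, adjusted p = 0.00515) for Srxn1, and at 24 h 0.34 (SE 0.096, adjusted p = 0.0369) for Nfe2l2. In the ATMIN pair they were 0.51 (SE 0.10, adjusted p = 0.00625) for Srxn1 at 4 h and 0.53 (SE 0.099, adjusted p = 0.00112) for Gclc at 24 h. Gclc was the only one of these called under every alternative.

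The response at 24 h differed from that at 4 h of the same line in 16 cases, given as the 24 h log2 change minus the 4 h one. In wtATM these were 0.51 (SE 0.091, adjusted p = 0.000121) for Hmox1, -0.60 (SE 0.15, adjusted p = 0.00437) for Nqo1 and -0.81 (SE 0.096, adjusted p = 1.01e-07) for Srxn1. In the ATM knock-out line they were 0.80 (SE 0.10, adjusted p = 5.39e-07) for Nfe2l2, 0.96 (SE 0.094, adjusted p = 2.52e-09) for Hmox1, -0.29 (SE 0.088, adjusted p = 0.0155) for Gsr, -0.33 (SE 0.079, adjusted p = 0.00215) for Txnrd1 and -0.38 (SE 0.10, adjusted p = 0.00577) for Srxn1. In wtATMIN they were 0.49 (SE 0.091, adjusted p = 0.000136) for Hmox1, -0.29 (SE 0.087, adjusted p = 0.0140) for Gsr and -0.43 (SE 0.10, adjusted p = 0.00258) for Srxn1. In the ATMIN knock-out line they were 0.49 (SE 0.14, adjusted p = 0.0115) for Nqo1, 0.40 (SE 0.10, adjusted p = 0.00305) for Gclm, -0.37 (SE 0.092, adjusted p = 0.00312) for Gsr, -0.24 (SE 0.080, adjusted p = 0.0277) for Txnrd1 and -0.80 (SE 0.10, adjusted p = 1.92e-07) for Srxn1. No group held enough samples for a search for single samples far from their group.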

How the results depend on the processing

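Of 171 calls among 300 pairs of gene and comparison, 120 were called under every alternative, 34 were lost under another setting and 48 without some library (51 under either), and none reversed. Of the 129 pairs not called, 20 passed under another setting and 11 without some library (25 under either). Counts of members called moved by more than 1.5 times as follows, and the cause was not tested. With APH at 4 h in the ATM knock-out line the 7 became 3 (1 higher, 2 lower) with library size only, 3 (1 higher, 2 lower) with no filter on low counts and 1 (1 higher, 0 lower) in the compared groups alone, and 2 to 6 without 1 library. In wtATMIN at 4 h the 3 became 1 with no filter, 1 in the compared groups alone and 0 to 2 without 1 library, and in the ATMIN knock-out line the 4 became 1 to 3 without 1 library. At 24 h the 4 of the ATM knock-out line became 8 (4 higher, 4 lower) in the compared groups alone, and the 5 of wtATMIN became 3 with no filter and 3 without any 1 library. Those of the ATMIN knock-out line became 3 to 5 without 1 library. For the ATM responses the 3 calls at 4 h became 0 in the compared groups alone and 0 to 3 without 1 library, and the 1 at 24 h became 0 with RLE size factors, 0 with library size only, 0 with no filter and 0 to 1 without 1 library. The 1 call of the ATMIN responses at 4 h became 0 to 1 without 1 library. Between 24 h and 4 h responses, wtATM went from 3 to 5 (3 higher, 2 lower) in DESeq2, the ATM knock-out line from 5 to 3 (2 higher, 1 lower) with library size only, and the ATMIN knock-out line from 5 to 2 to 5 without 1 library. Without replicate 1 or replicate 2 of ATM knock-out with APH at 4 h, 6 or 2 members were called in that line's APH comparison at 4 h. A group left with 1 sample is assumed to vary like the others. With library size only, the median of all genes moved by -0.10 in the ATM responses at 4 h, 0.11, 0.13 and 0.12 between times in DMSO in wtATM, wtATMIN and ATMIN knock-out, and 0.11 between the wild-type lines at 24 h.

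With the replicate number as a block no count moved by 1.5 times, and 4 single calls were lost: Srxn1 with APH at 24 h in wtATM (adjusted p = 0.0521), Nqo1 with APH at 24 h in wtATMIN (adjusted p = 0.0525), Nfe2l2 between the wild-type lines at 24 h (adjusted p = 0.0503) and Gclm between times in ATMIN knock-out (adjusted p = 0.0521). The samples share only a number: their deviations from group means correlated by -0.21 to 0.19 (median 0.0060), with 3 of 16 pairs over 0.1.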
